A study of Mus musculus with 8 samples.

Results

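The genes described here are Trp53, which encodes the transcription factor p53, and 9 of its direct targets: Cdkn1a, Mdm2, Ccng1, Zmat3, Phlda3, Btg2, Sesn2, Trp53inp1 and Eda2r. They were taken by symbol from the gene table, and all 10 were found among its 54532 genes. Their transcripts were measured in mouse small intestinal organoids, which are epithelial structures grown from crypts without stroma, in 4 control libraries and in 4 libraries of organoids given RANKL, the ligand of the receptor RANK. The labels give no genotype, age or sex for the cultures, and how much RANKL was added, and for how long, is not given for these libraries in the sources used here. The comparison asks which p53 pathway transcripts differed in level once RANKL was added. The labels number the libraries within a condition but do not say that they came from separate mice or cultures, so the p-values below measure only the spread between these libraries, which may be technical.

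The p53 protein is held at a low level by MDM2, a ubiquitin ligase that marks it for degradation. DNA damage and other stress release it from MDM2, after which p53 binds its response elements and raises transcription of genes that stop the cell cycle, repair DNA or trigger cell death. The pathway is controlled largely at the level of protein stability, which RNA sequencing does not measure, and in the intestinal crypt it is best known for the response to irradiation.

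Each library was read near the 3′ end of its transcripts, and a level is given in CPM, counts per 1000000 after TMM adjustment of the library totals. Totals ran from 583663 to 7807298 counts, with a median of 3911808 in control and 1613410 in RANKL libraries. Epithelial markers were present in every library, at a summed level of 7322 to 8456 CPM in control and 7030 to 7717 CPM in RANKL-treated organoids. Of these 10 genes, 1 was called higher (10%) and 3 lower (30%), and 6 were not called. Cdx1 was higher (log2 fold change 0.79), whereas Krt18 (-0.70), Cldn7 (-0.53) and Krt19 (-0.30) were lower. Summed M cell markers were 54.1 to 60.6 CPM in control and 1876 to 2132 CPM in RANKL libraries, with all 7 tested of 8 higher and Gp2 at 0 everywhere. Summed stem cell markers were 2066 to 2543 CPM in control and 1860 to 2039 CPM in RANKL libraries, with 1 of 8 higher and 3 lower. Olfm4, which was not called, had the largest part of that sum, with means of 1162 CPM in control and 1026 CPM in RANKL libraries. Its members moved in both directions: Lgr5 was lower (45.1 to 10.25 CPM, log2 fold change -2.22), as were Axin2 (-0.90) and Smoc2 (-0.76), whereas Ascl2 was higher (1.10). Summed enterocyte markers were 13090 to 17140 CPM in control and 11950 to 13450 CPM in RANKL libraries, with 1 of 12 higher and 2 lower. The M cell sums did not overlap between the groups by a wide margin. The stem cell sums did not overlap only narrowly, with the highest RANKL sum at 2039 CPM and the lowest control sum at 2066 CPM. The enterocyte, Paneth, goblet, enteroendocrine and tuft sums overlapped. Of the enteroendocrine markers 3 of 7 were higher, Cck (0.39), Gip (0.38) and Sct (0.46 in log2 fold change), each without overlap. The other enteroendocrine markers were not called: Chga (0.01), Chgb (-0.04), Neurod1 (-0.30) and Neurog3 (0.09). Among all genes tested 13.6% were called higher and 12.4% lower, and 24.6% did not overlap between the groups. The enterocyte counts (8.33% higher, 16.7% lower) are near those shares and are no result about that list. Markers of cells outside the epithelium had low sums. The 9 stromal genes summed to 15.9 to 49.9 CPM in control and 32.35 to 46.8 CPM in RANKL libraries with Dcn at 0. Of the 2 stromal genes tested, Pdgfrb was higher, with means of 3.87 ± 1.63 CPM for control and 19.0 ± 2.99 CPM for RANKL libraries (SD, n = 4 each; log2 fold change 2.53, edgeR adjusted p = 7e-08, no overlap), and Vim was not called (-0.17). The 8 immune genes summed to at most 4.58 CPM with Cd3e, Cd79a and Itgax among those at 0, and the 5 endothelial genes to at most 5.16 CPM with Cdh5 and Kdr at 0. In such bulk RNA fewer cells of a type and less RNA per cell cannot be told apart, and the part of these shifts in the results below was not tested.

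Cdkn1a, Ccng1 and Trp53 carry in the DNA before a start site a sequence close to the p53 response element, and these stretches are shown because p53 acts on its targets through this element. The windows run from 250 bases before to 50 bases after each annotated start (RefSeq, GRCm38.p6), and 8 of the 10 genes had one. The consensus element consists of a pair of 10-base copies, is searched here without a spacer over 20 bases, reads the same on both strands, and is marked in capitals.
Cdkn1a: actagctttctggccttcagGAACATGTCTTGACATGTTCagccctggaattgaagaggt
Ccng1: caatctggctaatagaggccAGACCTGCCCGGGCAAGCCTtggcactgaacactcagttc
Trp53: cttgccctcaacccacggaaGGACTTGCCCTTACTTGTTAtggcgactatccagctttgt
The Cdkn1a stretch lies at chr17:29090908-29090967 on the plus strand, with the element from -51 to -32 before the upstream one of its annotated starts. The Ccng1 stretch lies at chr11:40755442-40755501 on the minus strand, with the element from -195 to -176. The Trp53 stretch lies at chr11:69580264-69580323 on the plus strand, with the element from -75 to -56. Cdkn1a and Ccng1 differed from the consensus at 1 base. At most 1 mismatch was found in 22 of 27018 genes (0.0814%), these 2 among them. Trp53 differed at 3 bases, and at most 3 mismatches were found in 441 genes (1.63%) and in 3 of the 8 genes described here. Of 51 further p53 targets with a window, 1 had a site with at most 1 mismatch and 8 with at most 3. The window of the other Cdkn1a start held no site closer than 7 mismatches. A single 10-base copy with no mismatch stood in 4 of the 8 and in 9.56% of all genes, and its core letters CATG in 4 of the 8 and in 64.8% of all genes. A match is a description of sequence and not a bound site. Elements with a spacer, in introns or farther away were outside this search, so the other genes are not shown to lack one.

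Of the 10 genes, 9 passed the filter on low counts. Trp53, Zmat3, Cdkn1a and Mdm2 were higher in RANKL-treated organoids and Phlda3 was lower (edgeR quasi-likelihood test, adjusted p at most 0.05). That is 5 of 9, against 25.9% of the 9971 genes tested. The genes were chosen with earlier results of these data known, so this and the shares that follow only describe them. The 4 higher compare with 13.6% of all genes called higher and the 1 lower with 12.4% called lower. The groups did not overlap for 6 of the 9, against 24.6% of all genes. The median log2 fold change of the 9 was 0.31, against 0.00 over all genes. None of the 9 reached a 2-fold change. Under the alternative settings the number past the threshold was between 2 and 5 where only the fit, the scaling or the libraries changed.

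**Figure D1:**
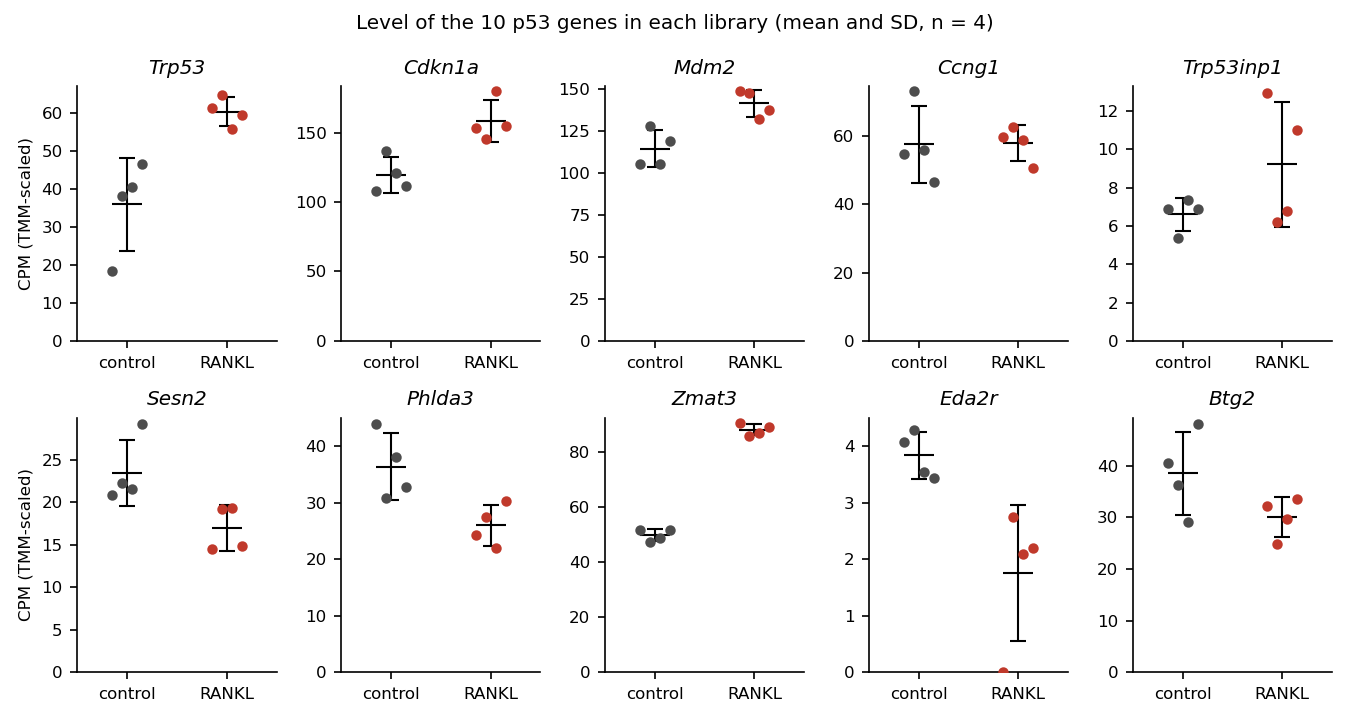
Level of each of the 10 genes in CPM (vertical axis, starting at 0) in the 4 control and 4 RANKL libraries (horizontal axis), 1 point per library, with the mean as a wide tick and the SD as a bar. The RANKL points lie wholly above the control points for Trp53, Cdkn1a, Mdm2 and Zmat3, wholly below them for Sesn2, Phlda3 and Eda2r, and overlap them for Ccng1, Trp53inp1 and Btg2.

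Trp53 (ENSMUSG00000059552, GRCm38 chr11:69580359-69591873, plus strand) was at 18.5, 38.1, 40.55 and 46.4 CPM in controls 1 to 4 and at 61.35, 64.7, 55.8 and 59.3 CPM in RANKL libraries 1 to 4. All RANKL libraries were higher than all control libraries, and control replicate 1 stood well below the other controls. The mean was 35.9 ± 12.1 CPM (SD, n = 4) in control and 60.3 ± 3.73 CPM (SD, n = 4) in RANKL-treated organoids, a log2 fold change of 0.87 (SE 0.19, 95% interval 0.48 to 1.27, edgeR adjusted p = 0.00096). The exact two-sided permutation test gave p = 0.0286, the smallest that its 70 assignments allow. The processed pseudogene Trp53-ps held 2 counts in all, so few Trp53 reads were assigned to that copy.

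The Trp53 level differed with depth at both ends of the controls. Control replicate 1 had the most counts of all libraries (7807298) and the lowest level, and control replicate 4 the fewest (583663) and the highest control level. A fit that also holds the log2 total of each library gave a log2 fold change of 0.50 (adjusted p = 0.11, named the depth covariate below), and with each library left out in turn it lay between 0.57 and 1.06. The shallowest library of each condition had nearly the same depth: control replicate 4 held 27 Trp53 counts, or 46.4 CPM (95% Poisson interval 30.6 to 67.6), and RANKL replicate 1 of 613135 counts held 38, or 61.35 CPM (43.4 to 84.2). These intervals overlap, and the difference within that single pair was not tested.

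**Figure D2:**
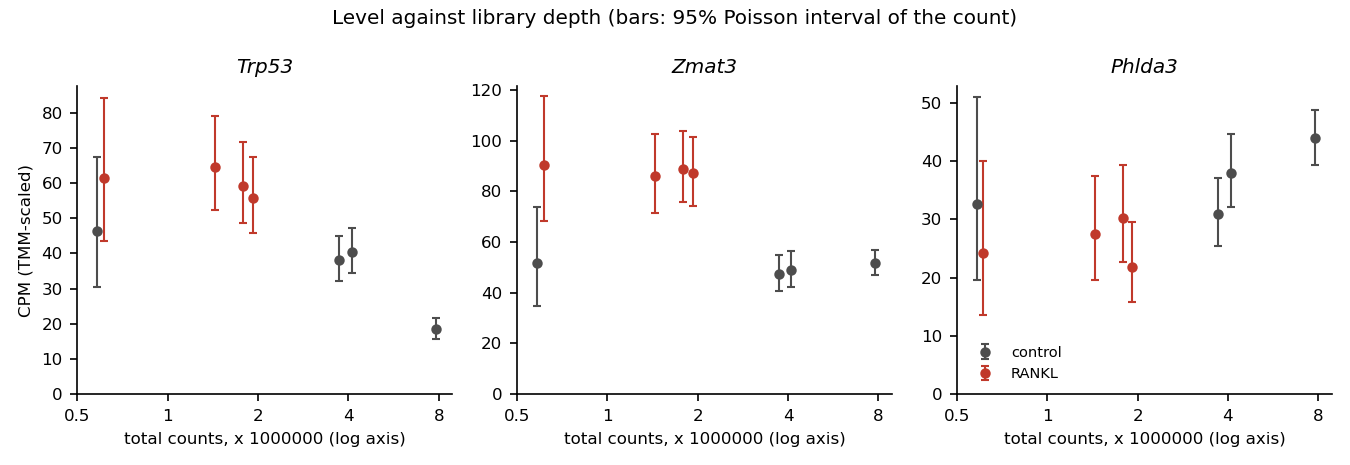
Level of Trp53, Zmat3 and Phlda3 in CPM (vertical axes, starting at 0) against the total counts of each library (horizontal log axis, in units of 1000000 counts), with control libraries in grey, RANKL libraries in red and the 95% Poisson interval of the count as a bar. Trp53 was 18.5 CPM in the deepest control and 46.4 CPM in the shallowest, whereas Zmat3 stayed between 47.2 and 51.7 CPM across the controls.

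Among the genes that act on p53, its RNA or the growth signals around it, Mdm2 and Zmat3 were higher, Phlda3 was lower, and Ccng1 did not pass the test. Zmat3 (ENSMUSG00000027663, chr3:32334792-32366014, minus strand) encodes a zinc finger protein that binds RNA. It was at 51.7, 47.2, 48.9 and 51.6 CPM in controls 1 to 4 and at 90.4, 86.0, 87.1 and 88.97 CPM in RANKL libraries 1 to 4. Levels within each group lay close together and the gap between the groups was far wider than either spread. The means were 49.85 ± 2.17 and 88.1 ± 1.95 CPM (SD, n = 4 each), and the log2 fold change was 0.82 (SE 0.12, 95% interval 0.58 to 1.07, edgeR adjusted p = 3.2e-06). It kept its call under all 17 alternatives, between 0.78 and 0.85, and with the depth covariate among them.

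Mdm2 (ENSMUSG00000020184, chr10:117688875-117710758, minus strand) was at 105.0, 127.7, 105.4 and 118.7 CPM in controls 1 to 4 and at 148.5, 147.3, 131.9 and 137.3 CPM in RANKL libraries 1 to 4. The groups did not overlap, but RANKL replicate 3 was only slightly above control replicate 2. The log2 fold change was 0.31 (SE 0.11, 95% interval 0.08 to 0.53, edgeR adjusted p = 0.037). The call was lost in 9 of 17 alternatives, among them DESeq2 (adjusted p = 0.062), the fit without control replicate 1 (0.26, adjusted p = 0.11) and the depth covariate (0.23, adjusted p = 0.24), while the direction held in all 17.

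Phlda3 (ENSMUSG00000041801, chr1:135766119-135769136, plus strand) encodes a PH domain protein that competes with AKT for membrane lipids. It was at 43.9, 30.9, 38.0 and 32.7 CPM in controls 1 to 4 and at 24.2, 27.5, 21.9 and 30.2 CPM in RANKL libraries 1 to 4. Every RANKL library was below every control library, with RANKL replicate 4 just under control replicate 2. The log2 fold change was -0.52 (SE 0.17, 95% interval -0.87 to -0.17, edgeR adjusted p = 0.026). The call was lost with DESeq2 (-0.51, adjusted p = 0.075), with the depth covariate (-0.34, adjusted p = 0.34), without control replicate 1 (-0.39, adjusted p = 0.12) and without RANKL replicate 3 (-0.42, adjusted p = 0.12).

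Ccng1 (ENSMUSG00000020326, chr11:40748552-40755311, minus strand) encodes cyclin G1, which brings a phosphatase to MDM2. It was at 54.75, 73.3, 55.75 and 46.4 CPM in controls 1 to 4 and at 59.7, 62.6, 58.9 and 50.5 CPM in RANKL libraries 1 to 4. The groups overlapped throughout, with the control libraries the more scattered. The log2 fold change was -0.04 (SE 0.14, edgeR adjusted p = 0.86), and its 95% interval of -0.33 to 0.25 does not reach the values fitted for Zmat3 or Trp53. Its sign turned in 3 of 17 alternatives. The element shown above for Ccng1 and that at the upstream Cdkn1a start each differed from the consensus at 1 base, at different positions. This describes sequence only, and binding by p53 was not tested.

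Of the genes that hold back the cell cycle, Cdkn1a was higher and Btg2 did not pass the test. Cdkn1a (ENSMUSG00000023067, chr17:29090976-29100727, plus strand) encodes p21, the inhibitor of cyclin-dependent kinases that carries much of the p53 arrest. It was at 108.3, 137.1, 120.6 and 111.8 CPM in controls 1 to 4 and at 153.4, 145.2, 179.9 and 154.9 CPM in RANKL libraries 1 to 4. All RANKL libraries were above all control libraries, and RANKL replicate 3 was the highest. The means were 119.5 ± 12.9 and 158.3 ± 14.99 CPM (SD, n = 4 each), and the log2 fold change was 0.40 (SE 0.11, 95% interval 0.18 to 0.63, edgeR adjusted p = 0.0072). The call was lost in 1 of 17 alternatives, without RANKL replicate 3 (0.33, adjusted p = 0.057). An annotated gene on the other strand, AC167363.2, overlaps its exons, and the counting used strand.

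Btg2 (ENSMUSG00000020423, chr1:134075170-134079120, minus strand) encodes an antiproliferative cofactor of mRNA deadenylation. It was at 40.5, 36.2, 29.1 and 48.15 CPM in controls 1 to 4 and at 32.3, 24.8, 29.7 and 33.5 CPM in RANKL libraries 1 to 4. The groups overlapped at their edges. The log2 fold change was -0.30 (SE 0.17, 95% interval -0.65 to 0.05, edgeR adjusted p = 0.21).

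The stress and metabolic genes did not pass the test. Sesn2 (ENSMUSG00000028893, chr4:132492032-132510501, minus strand) encodes sestrin 2, which restrains mTORC1 when leucine is short. It was at 20.9, 22.3, 21.5 and 29.2 CPM in controls 1 to 4 and at 14.5, 19.3, 19.3 and 14.8 CPM in RANKL libraries 1 to 4. The RANKL values were all below the lowest control value, but the model's log2 fold change was -0.36 (SE 0.20, 95% interval -0.76 to 0.04, edgeR adjusted p = 0.19). The exact permutation p of 0.0286 is again the smallest possible and carries no adjustment for the number of genes.

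Trp53inp1 (ENSMUSG00000028211, chr4:11156431-11174379, plus strand) encodes a stress protein that takes part in autophagy. It was at 6.88, 5.37, 7.35 and 6.88 CPM in controls 1 to 4 and at 12.9, 6.19, 6.78 and 11.0 CPM in RANKL libraries 1 to 4. The RANKL libraries split, with replicates 1 and 4 above all controls and replicates 2 and 3 among them. The log2 fold change was 0.39 (SE 0.29, 95% interval -0.21 to 0.99, edgeR adjusted p = 0.35).

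Eda2r (ENSMUSG00000034457, chrX:97333840-97377216, minus strand), a receptor of ectodysplasin A2 in the TNF receptor family, had too few counts for the main test. It had 32, 16, 14 and 2 counts in controls 1 to 4 and 0, 4, 4 and 4 counts in RANKL libraries 1 to 4. In CPM these were 4.07, 4.29, 3.55 and 3.44 in control and 0, 2.75, 2.09 and 2.20 in RANKL libraries, so the groups did not overlap. Pooled over the libraries, 64 control counts gave 3.97 CPM and 12 RANKL counts gave 2.065 CPM, a ratio of 0.520. The count of 0 allows up to 3 counts, or 4.84 CPM, in RANKL replicate 1, and with no filter on low counts the log2 fold change was -0.98 (SE 0.51, 95% interval -1.97 to 0.01, edgeR adjusted p = 0.26).

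**Figure D3:**
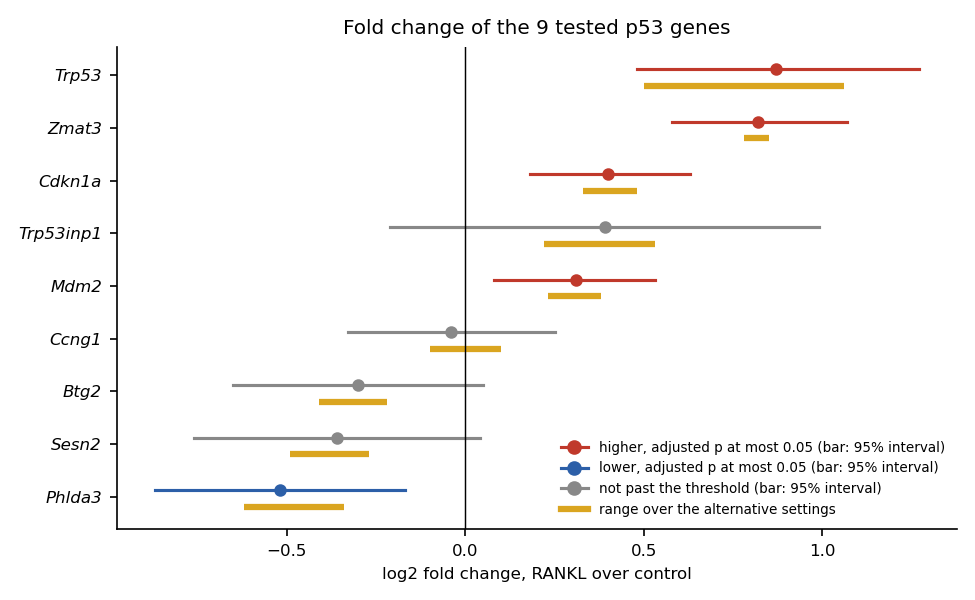
Log2 fold change of RANKL over control (horizontal axis) for the 9 tested genes (vertical axis), with the 95% interval as a thin bar coloured by call and the range over the alternative settings as a thick bar. Trp53 at 0.87 and Zmat3 at 0.82 have the highest values, the interval of Trp53 overlaps those of Cdkn1a at 0.40 and Mdm2 at 0.31, and Phlda3 at -0.52 is the lowest.

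The 8 tested targets were also set against Trp53 in the same library. The log2 ratio of Zmat3 to Trp53 was 1.49, 0.31, 0.27 and 0.15 in controls 1 to 4 and 0.56, 0.41, 0.64 and 0.58 in RANKL libraries 1 to 4. The means were 0.55 and 0.55, an equality that rests on control replicate 1, without which the control mean was 0.24 and the groups did not overlap. The ratio of Phlda3 to Trp53 was lower by 1.31 on the log2 scale in RANKL libraries, with a control mean of 0.09 and a RANKL mean of -1.22, that of Sesn2 changed from -0.54 to -1.84 and that of Btg2 from 0.16 to -1.01, each with no overlap between groups. The ratio of Mdm2 to Trp53 went from 1.75 to 1.23 with no overlap, and those of Cdkn1a from 1.81 to 1.39, Ccng1 from 0.74 to -0.06 and Trp53inp1 from -2.37 to -2.78 with overlap. Without control replicate 1 the control means were -0.30 for Phlda3, -0.78 for Sesn2, -0.17 for Btg2, 1.49 for Mdm2, 1.56 for Cdkn1a, 0.47 for Ccng1 and -2.68 for Trp53inp1, and the groups overlapped for the last 3 of these. All of these share the Trp53 level as denominator, including its low value in control replicate 1, and they were not tested.

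The close relatives of these genes, 16 of 25 tested, were higher in 4 cases (25%) and lower in 1 (6.25%), with a median log2 fold change of 0.02. As for each list below, these shares stand beside 13.6% higher and 12.4% lower among all genes tested. The lists too were chosen with earlier results of these data known, so their shares are descriptions and not independent support. Cdkn2b, which encodes the CDK4 and CDK6 inhibitor p15, was at 22.9, 17.7, 15.2 and 17.2 CPM in controls 1 to 4 and at 51.7, 48.9, 45.9 and 46.1 CPM in RANKL libraries 1 to 4. Every RANKL library was far above the controls, and the log2 fold change of 1.33 (SE 0.17, edgeR adjusted p = 2.5e-07) kept its call in all 17 alternatives. Mdm4, the partner of MDM2 that masks the p53 activation domain, was 99.8 ± 3.63 CPM in control and 143.8 ± 15.5 CPM in RANKL libraries (SD, n = 4 each; 0.52, SE 0.11, edgeR adjusted p = 0.00067).

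Among the other CDK inhibitors tested no gene passed: Cdkn1b was at 36.5 ± 2.57 and 32.6 ± 4.38 CPM (SD, n = 4 each), Cdkn2c at 6.66 ± 0.326 and 3.525 ± 2.475 CPM, and Cdkn1c and Cdkn2d had fitted log2 fold changes of 0.00 and 0.04. Cdkn2a had too few counts for the test, with 8 in control and 12 in RANKL libraries. Its means were 0.396 CPM in control and 2.26 CPM in RANKL libraries, without overlap. The log2 ratio of Cdkn1a to Cdkn1b, which encodes p27, was 1.72, 1.83, 1.71 and 1.56 in controls 1 to 4 and 2.25, 2.44, 2.41 and 2.05 in RANKL libraries 1 to 4, without overlap. Trp53inp2 (0.73, edgeR adjusted p = 0.012) and the antiproliferative gene Btg1 (0.57, edgeR adjusted p = 0.011) were higher and Phlda1 was lower (-0.36, edgeR adjusted p = 0.012). The call of Btg1 was lost with the depth covariate, without control replicate 2 and without RANKL replicate 2, that of Trp53inp2 without RANKL replicate 2 and without RANKL replicate 4, and that of Phlda1 without RANKL replicate 2. The relatives Sesn1 (0.44), Sesn3 (0.03), Ccng2 (-0.19), Tob1 (-0.28), Tob2 (-0.06), Zmat2 (0.25) and Zmat5 (-0.03) did not pass the edgeR test on these log2 fold changes. Zmat2 passed in 4 alternatives: limma-voom (adjusted p = 0.04), library totals alone (edgeR adjusted p = 0.041), at least 10 counts in every library (edgeR adjusted p = 0.041) and the fit without control replicate 4 (edgeR adjusted p = 0.033).

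Further p53 targets outside the 10 numbered 61, of which 48 were tested, with 10 higher (20.8%, against 13.6% of all genes), 7 lower (14.6%, against 12.4%, which is near that background) and a median log2 fold change of 0.03. Of 12 tested death genes, 4 were higher (33.3%, against 13.6% of all genes) and 1 lower (8.33%, against 12.4%), with a median of 0.19. Fas, the death receptor, was at 3.69, 5.635, 3.55 and 1.72 CPM in controls 1 to 4 and at 19.4, 15.8, 9.91 and 9.89 CPM in RANKL libraries 1 to 4, without overlap (log2 fold change 1.64, SE 0.31, edgeR adjusted p = 0.00013). The TRAIL receptor gene Tnfrsf10b (1.36, SE 0.27, edgeR adjusted p = 0.00029) and the BH3-only genes Pmaip1 (1.08, SE 0.19, edgeR adjusted p = 4.9e-05) and Bbc3 (0.99, SE 0.17, edgeR adjusted p = 5.1e-05), which encode NOXA and PUMA, were also higher. Control replicate 4 held only 1 Fas count and 2 Tnfrsf10b counts, under the 5.16 CPM that 3 counts make in that library. Bax, which encodes the pore-forming effector of these proteins, was lower at 169.8, 181.7, 327.2 and 163.4 CPM in controls 1 to 4 against 130.8, 141.8, 167.4 and 113.7 CPM in RANKL libraries 1 to 4. Control replicate 3 was far above the rest and the groups overlapped (-0.63, SE 0.16, edgeR adjusted p = 0.0042), and the call was lost with DESeq2 and with the depth covariate. An annotated gene on the same strand, Gm45808, overlaps the exons of Bax, so reads there could be split or left out.

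Of 10 tested targets that restrain the cell cycle or p53 itself, 3 were higher (30%, against 13.6% of all genes) and 0 lower by edgeR (against 12.4%), and 0 were lower also at an unadjusted p under 0.05, by DESeq2 or by limma-voom. In a list of 10 genes a count of 0 lower is near that background. Plk2, a kinase of the centrosome cycle, went from 7.20 ± 2.095 to 18.0 ± 4.17 CPM (SD, n = 4 each; 1.47, SE 0.26, edgeR adjusted p = 5.3e-05). Cop1, a ubiquitin ligase that acts on p53, went from 29.1 ± 0.502 to 45.4 ± 7.12 CPM (0.65, SE 0.15, edgeR adjusted p = 0.0018), and Btg1 is the third. Of 18 tested targets in metabolism and stress, 3 were higher and 3 lower (16.7% each, near the 13.6% and 12.4% of all genes), with a median of -0.08. The counts are thus no result about the list, and the genes below are given for their own values. The secreted stress factor Gdf15 was at 94.5, 93.65, 111.3 and 89.4 CPM in controls 1 to 4 and at 48.4, 45.4, 50.6 and 35.15 CPM in RANKL libraries 1 to 4, with all RANKL libraries far below the controls (-1.15, SE 0.14, edgeR adjusted p = 8.6e-08). Glutathione peroxidase Gpx1 was higher (0.84, SE 0.10, edgeR adjusted p = 8.8e-08), as were Ddit4, an inhibitor of mTORC1 signalling (0.46, edgeR adjusted p = 0.0061), and the sulfatase gene Sulf2 (0.51, edgeR adjusted p = 0.037). Kitl, the ligand of KIT, was lower (-0.74, SE 0.14, edgeR adjusted p = 0.00022), and so was the pantothenate kinase gene Pank1 (-0.41, edgeR adjusted p = 0.026, lost in 5 of 17 alternatives), which is named outside the rule, after its values were seen. The calls of Gdf15, Gpx1, Kitl, Plk2, Fas, Tnfrsf10b, Pmaip1, Bbc3, Cop1 and Ddit4 held in every alternative in which each was tested, and that of Sulf2 was lost in 9 of 17.

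Of 8 tested targets in DNA repair, 3 were lower (37.5%, against 12.4% of all genes) and 0 higher by edgeR (against 13.6%, so that 0 of 8 is near that background), with a median of -0.25. At an unadjusted p under 0.05 1 was higher, and DESeq2 and limma-voom called 0 higher and 2 lower. They included Pcna, the sliding clamp of DNA polymerases, which went from 61.6 ± 5.91 to 43.4 ± 7.33 CPM (SD, n = 4 each; -0.49, SE 0.14, edgeR adjusted p = 0.012), and the alkyltransferase gene Mgmt (-0.70, SE 0.25, edgeR adjusted p = 0.040). Their calls were lost in 2 of 17 and 11 of 16 alternatives. With the depth covariate in edgeR, 0 of the 8 passed, and 2 were lower at an unadjusted p under 0.05.

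**Figure D4:**
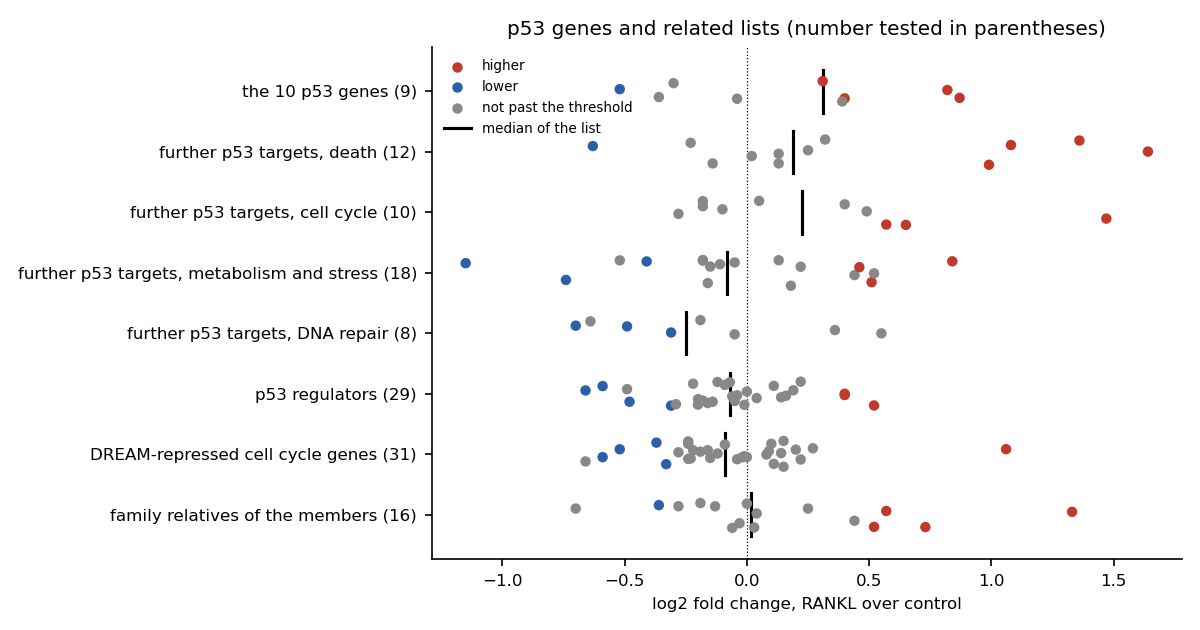
Log2 fold change of RANKL over control (horizontal axis) for each tested gene of the 10 p53 genes and 7 related lists (vertical axis, with the number tested), 1 point per gene, coloured by call, with the list's median as a black tick. The tested death and cell cycle targets reach from -0.63 to 1.64, and the tested DNA repair targets from -0.70 to 0.55, of which the 3 called lie below 0.

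Upstream of p53, 3 of 29 tested regulators were higher (10.3%) and 4 lower (13.8%), with a median of -0.07. Both shares are near the 13.6% and 12.4% of all genes and are no result about the list. Atm, the kinase that activates p53 after DNA breaks, was at 177.2, 179.3, 216.4 and 197.8 CPM in controls 1 to 4 and at 127.5, 127.3, 143.4 and 90.6 CPM in RANKL libraries 1 to 4, without overlap (-0.66, SE 0.12, edgeR adjusted p = 0.00014). The calls of Atm and Mdm4 held in all 17 alternatives. The checkpoint kinase Chek2 (-0.59, edgeR adjusted p = 0.047), Trim24, a ubiquitin ligase for p53 (-0.48, edgeR adjusted p = 0.036), the methyltransferase gene Setd7 (0.40, edgeR adjusted p = 0.029) and Trp53bp1, which encodes a protein at DNA breaks (0.40, edgeR adjusted p = 0.043), lost their calls in 12 of 16, 7, 9 and 11 of 17 alternatives. The fourth lower regulator, the acetyltransferase gene Kat5 (-0.31, edgeR adjusted p = 0.044), lost its call in 13 of 17 and was likewise named after its values were seen. Of 31 tested late cell cycle genes that p53 represses through p21 and the DREAM complex, 1 was higher (3.23%, against 13.6% of all genes) and 4 were lower (12.9%, near the 12.4% of all genes), with a median of -0.09. DESeq2 called 1 higher and 1 lower (1104 and 949 of all 9971 genes). With the depth covariate in edgeR 0 were higher and 5 lower (1019 and 808 of all genes). At an unadjusted p under 0.05 by edgeR 2 were higher and 8 lower, without a share over all genes to set beside them. Mki67, the proliferation marker, went from 130.8 ± 21.5 to 97.5 ± 6.94 CPM (SD, n = 4 each; -0.37, edgeR adjusted p = 0.023), and Foxm1, Bub1b and Cdc25a were lower by log2 fold changes of -0.59, -0.52 and -0.33. Mybl2, whose protein joins the MuvB core that DREAM also contains, was higher instead, from 12.8 ± 3.95 to 25.2 ± 4.997 CPM (1.06, SE 0.22, edgeR adjusted p = 0.0006), a call lost with the depth covariate. The calls of Mki67, Foxm1, Bub1b and Cdc25a were lost in 4, 7, 9 and 8 alternatives, and same-strand genes overlap the exons of Foxm1.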

How the data were processed

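The 8 libraries were made from total RNA with a 3′ kit that marks strand and were sequenced as single reads. The authors trimmed the reads, removed abundant sequences, aligned the rest to the mouse genome (mm10) with STAR and deposited raw counts per gene from strand-specific featureCounts, with no normalization. Molecular identifiers are not mentioned, so Poisson intervals and floors cover counting error only. A count of 0 allows up to 3 counts, or 0.382 to 5.16 CPM according to depth. Gene spans are from GENCODE on GRCm38.

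RANKL was compared with control by edgeR 4.0.16 (TMM, filter on low counts, quasi-likelihood test, Benjamini-Hochberg over 9971 genes, threshold 0.05) with limma 3.58.1 and DESeq2 1.42.0 as alternatives in R 4.3.3, beside an exact two-sided permutation test of CPM means. The steps were tested on simulated data. Python 3.11.15 with pandas 2.3.3 handled the tables. Ratios to Trp53 without control replicate 1 were added after the data were seen. The 17 alternatives per gene changed scaling, test, filter, block, depth covariate and libraries, and counts were also repeated at an adjusted p of 0.01 and a fold of at least 2.

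The members and lists were chosen with earlier results of these data known. Named beside the 10 genes were all tested relatives, in each further list the called genes of largest change (at most 5, each averaging 5 CPM or more), and genes past the threshold against their list's median. Between libraries of one group Spearman correlations were 0.9579 to 0.9861 and chi-square over its degrees of freedom 1.27 to 12.6, so none were merged. Same-numbered libraries had correlated deviations of -0.0318 to 0.0972, so the numbers were not taken to pair them. Values of some listed genes are not reported here.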

Additional observations from a re-analysis of the deposited data

Results flagged for a closer look

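Single libraries stood apart from the other 3 of their group in 7 of 102 groups of 4 values examined, where chance gives about 5.1. Each had a gap to its neighbour that was large beside the range of its group. Sesn2 was 29.2 CPM in control replicate 4 against 22.3 CPM in the next library. Bax was 327.2 CPM in control replicate 3 against 181.7 CPM. Plk2 was 10.3 CPM in control replicate 4 against 6.49 CPM, and Kitl was 61.9 CPM there against 53.4 CPM. Btg1 was 24.96 CPM in control replicate 2, below the next library at 32.7 CPM. Sulf2 was 23.55 CPM in control replicate 1 against 18.9 CPM. Bub1b was 14.5 CPM in RANKL replicate 1, below the next at 21.9 CPM. Control replicate 4 and RANKL replicate 1 are the shallowest libraries of their groups, and the part of depth in these values was not tested.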

How the results depend on the processing

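Zmat3 kept its direction and call under all 17 alternatives, and no called gene of the 10 changed sign. The number of the 10 past the threshold, 5, became 3 with DESeq2, 2 with the depth covariate, 3 at an adjusted p of 0.01, 0 at a fold of at least 2, and 3 to 5 with single libraries left out, with 3 without control replicate 1 and 3 without RANKL replicate 3. With single libraries left out the log2 fold change was 0.57 to 1.06 for Trp53, 0.33 to 0.48 for Cdkn1a, 0.26 to 0.38 for Mdm2, -0.62 to -0.39 for Phlda3 and -0.10 to 0.10 for Ccng1. The call was lost with the depth covariate for Trp53 (0.50), Mdm2 (0.23) and Phlda3 (-0.34), with DESeq2 for Mdm2 (0.31) and Phlda3 (-0.51), and for Mdm2 with no filter (0.27) and without the shallowest library of each group (0.30); the cause was not tested.

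All genes called fell from 2587 to 1636 at an adjusted p of 0.01 and to 577 at a fold of at least 2, and library totals alone gave 1437 higher and 1110 lower. At a fold of at least 2 the death list had 3 genes called, the cell cycle list 1, the metabolism list 1, DNA repair 0, regulators 0, the late cell cycle genes 1 and relatives 1. At an adjusted p of 0.01 DNA repair had 0, regulators 2, late cell cycle genes 1 and relatives 2. The death list had 3 with at least 10 counts in every library. With the depth covariate DNA repair had 0 and regulators 3, with DESeq2 regulators 2 and late cell cycle genes 2, with limma-voom regulators 4, and without the shallowest libraries DNA repair 1, regulators 2 and late cell cycle genes 2. With single libraries left out DNA repair had 0 to 3 (0 without RANKL replicate 4), regulators 2 to 5, late cell cycle genes 1 to 7 (1 without RANKL replicate 2) and relatives 2 to 6 (2 without RANKL replicate 2). The loss of genes at a stricter threshold or fold follows from its construction, and the other causes were not tested.

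The replicate number as a block left 5 of the 10 genes and 2610 of all genes called, with regulators going from 7 to 5 and DNA repair from 3 to 2. Mgmt (adjusted p = 0.052), Chek2 (0.13) and Foxm1 (0.054) lost their calls under it. Its sign turned for Ccng1 (0.00072) and Cdkn1c (-0.10), neither called in any fit. Signs of other uncalled relatives turned as well: with no filter, which moves the median of all genes to -0.107, for Sesn3 (-0.01) and Cdkn1c (-0.04), with DESeq2 for Cdkn1c (-0.02), without the shallowest libraries for Cdkn2d (-0.0023), with the depth covariate for Ccng2 (0.13) and with library totals for Zmat5 (0.00047). With single libraries left out Sesn3 ran from -0.05 to 0.09, Cdkn1c from -0.16 to 0.09, Cdkn2d from -0.17 to 0.18, Tob2 from -0.15 to 0.10 and Zmat5 from -0.22 to 0.24. Depth limits Eda2r and the genes below about 5 CPM in the shallowest libraries.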
